A study of Mus musculus with 3 samples.

Results

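Open chromatin at the ends of protein-coding genes was examined for regions that carried an ATAC-seq peak in corticospinal motor neurons and none in callosal projection neurons. The members were chosen by their peak calls: regions merged from 3 peak lists, on autosomes, with a peak in the corticospinal list and in neither callosal list, and with the summit within 1 kb of either end of a RefSeq protein-coding gene. There were 855 such regions, at 806 of 20665 autosomal protein-coding genes (3.9%), out of 204313 merged regions, 23383 autosomal corticospinal-only regions and 18761 autosomal gene-end regions. They made up 4.56% of the gene-end regions.

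The study sorted 2 kinds of cortical projection neuron from mouse brain by FACS and profiled 50000 cells per library. Callosal projection neurons (CPN) were represented by 2 libraries, CPN 1 and CPN 2, and corticospinal motor neurons (CSMN) by 1 library. No treatment or genotype is named in the labels for either group, while for age, sex, strain and sort markers nothing was given in the sources used here. With a single CSMN library no test between the cell types could be made, and no comparison below has a replicate check on the CSMN side.

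Callosal neurons send axons across the corpus callosum to the other hemisphere, whereas corticospinal neurons, found in layer V, project to the spinal cord. In ATAC-seq a transposase inserts adapters into accessible DNA, so a peak marks a nucleosome-poor stretch. The start of an active gene is usually accessible in many cell types, and such starts often lie in CpG islands, which are stretches rich in the CG dinucleotide. Accessible sites that differ between related neurons more often lie away from gene starts.

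The CPN 1, CPN 2 and CSMN lists held 134018, 158779 and 98067 peaks, and for read totals no value was given in the sources used here. The share of peaks with a −log10 q of at least 5 was 72.4%, 65.4% and 55.2%. A missing peak therefore means that none was called, not that the site was closed. Ends of genes known from the labelled cells carried peaks in every library. Of 25 CSMN and subcerebral genes, 21, 23 and 20 had one in CPN 1, CPN 2 and CSMN, and of 26 CPN and upper-layer genes the numbers were 22, 22 and 23. Peaks at gene ends thus did not separate the labelled cell types. Microglia genes had such a peak at 8, 8 and 5 of 13 genes and astrocyte genes at 8, 9 and 8 of 11.

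Promoter sequences of 3 members are shown because their CSMN summit fell inside the annotated promoter window, defined as 250 bases before to 50 bases after a listed gene start. The first belongs to Akr1c13, an aldo-keto reductase gene, the second to the uncharacterized gene Gm2832, and the third to Nts, which encodes the precursor of the neuropeptide neurotensin. One more window, the start of Parm1, which encodes a mucin-like membrane protein and is a CSMN gene, is shown for contrast because that start was open in all 3 libraries while the other end of Parm1 held a member. It was chosen after the values were seen. The sequences are from RefSeq on GRCm38.p6 (mm10), read 5′ to 3′ on the gene's strand, and capitals mark matches on either strand to the TATA box (TATAAA), the CCAAT box, the GC box (GGGCGG), the cyclic AMP response element (TGACGTCA), the AP-1 motif (TGANTCA), the E-box form CACGTG or the NRF1 core (CGCATGCG).
Akr1c13 (chr13:4190937-4191236, plus strand): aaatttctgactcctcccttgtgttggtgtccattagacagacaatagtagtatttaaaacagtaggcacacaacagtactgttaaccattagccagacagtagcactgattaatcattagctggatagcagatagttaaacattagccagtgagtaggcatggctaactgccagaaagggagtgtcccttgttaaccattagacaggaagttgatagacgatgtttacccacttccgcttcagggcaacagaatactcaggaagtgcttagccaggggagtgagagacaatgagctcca
Gm2832 (chr14:41264420-41264719, plus strand): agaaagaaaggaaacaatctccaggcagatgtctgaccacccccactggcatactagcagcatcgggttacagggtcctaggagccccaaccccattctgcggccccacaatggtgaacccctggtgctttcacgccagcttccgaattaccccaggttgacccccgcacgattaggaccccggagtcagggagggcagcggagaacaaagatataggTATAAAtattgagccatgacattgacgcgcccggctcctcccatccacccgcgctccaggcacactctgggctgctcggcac
Nts (chr10:102490369-102490668, minus strand): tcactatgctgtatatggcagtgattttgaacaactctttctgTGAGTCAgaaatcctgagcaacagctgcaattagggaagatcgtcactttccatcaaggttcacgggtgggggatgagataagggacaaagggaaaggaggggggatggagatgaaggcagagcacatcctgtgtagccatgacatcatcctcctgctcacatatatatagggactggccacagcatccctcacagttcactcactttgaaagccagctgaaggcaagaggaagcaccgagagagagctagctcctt
Parm1 start (chr5:91517450-91517749, plus strand): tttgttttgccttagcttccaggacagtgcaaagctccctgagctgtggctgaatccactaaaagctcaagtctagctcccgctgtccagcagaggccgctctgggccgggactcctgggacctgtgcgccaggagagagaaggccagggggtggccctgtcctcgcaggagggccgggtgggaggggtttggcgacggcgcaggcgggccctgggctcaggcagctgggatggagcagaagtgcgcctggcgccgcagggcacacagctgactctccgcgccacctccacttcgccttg

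The CSMN summit lay at base 256 of the Akr1c13 window, base 257 of the Gm2832 window and base 280 of the Nts window, counted from the first base printed. All 3 summits were thus just past the start listed in the promoter table. The Akr1c13 window held none of the 7 marked motifs, and that of Gm2832 held TATAAA at base 219. The Nts window held a match to the AP-1 motif TGANTCA at base 44, a motif found in 7.06% of all listed promoters. A match describes letters only. CpG dinucleotides were scarce in the windows of Akr1c13 and Nts, with an observed over expected ratio of 0.141 and 0.169, and reached 0.560 in Gm2832. The GC content was 43.7% in Akr1c13, 58.3% in Gm2832 and 49.0% in Nts, against 66.0% at the shared Parm1 start, where the CpG ratio was 0.493.

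Members were weak peaks. Their CSMN fold, the authors' enrichment at the summit over the caller's background, ran from 1.80 to 12.1 with a median of 2.34 and quartiles of 2.17 and 2.52. Only 57 members reached a fold of 3. Regions at gene ends with a peak in all 3 libraries had a median CSMN fold of 7.29, and 93.2% of them reached a −log10 q of 5, against 106 members (12.4%, Wilson 95% interval 10.4 to 14.8). CSMN-only regions elsewhere on the autosomes had the same median, 2.34, and 13.3% reached that level, so the gene-end members did not stand out in strength from the class they came from. The median member was 173 bp wide, compared with 969 bp for shared gene-end regions. These values come from the calls that chose the members and are a description.

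**Figure D1:**
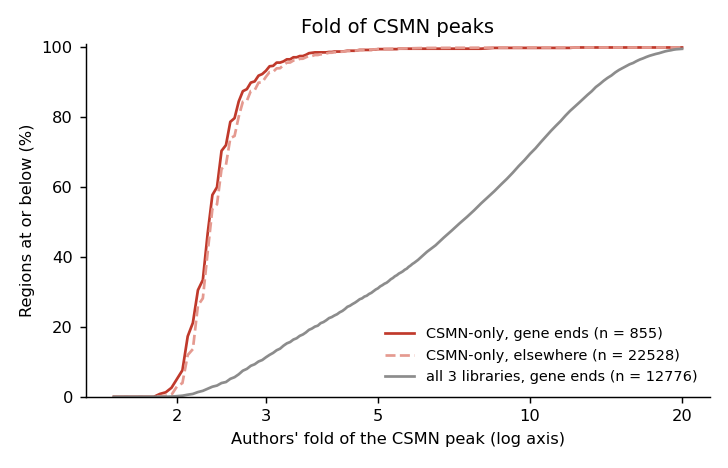
Cumulative share of regions (y axis, percent) at or below each CSMN fold given by the authors (x axis, log scale), for the 855 members, 22528 CSMN-only regions elsewhere and 12776 gene-end regions with a peak in all 3 libraries. The curves for members and for CSMN-only regions elsewhere nearly coincide around their shared median of 2.34, while the shared gene-end regions reach far higher folds.

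Gene starts could be told from the other end for the 79.6% of autosomal protein-coding genes with a strand in the promoter table, which held no gene of chromosome 18. Among members with a known strand, 335 lay at the gene start and 340 at the other end, a start share of 49.6% (interval 45.9 to 53.4), and 180 members, including all 20 on chromosome 18, had no strand. Shared gene-end regions lay at the start in 91.2% of cases. The share at the start was 50.2% for CPN-only regions, meaning those called in CPN 1 and CPN 2 but not in CSMN, 44.8% for regions of CPN 1 alone and 42.8% for regions of CPN 2 alone. Shares near or below an even split were thus also found in the classes of CPN peaks that CSMN lacked.

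Member summits lay farther from the start than shared summits. Of the 335 members at a start, 57 (17%, interval 13.4 to 21.4) had the summit within 100 bp, compared with 57.4% of 9209 shared regions, 30.4% of 628 CPN-only regions, 15.3% of regions of CPN 1 alone and 19.4% of regions of CPN 2 alone. The median distance from the start was 408 bp for members and 78 bp for shared regions. At the other end, 214 of 340 member summits (62.9%) lay inside the gene, against 49.9% of CPN-only summits, 55.0% and 56.9% for CPN 1 alone and CPN 2 alone and 51.0% of shared summits. Regions called in CSMN and a single CPN library had shares like that of members, 61.8% with CPN 1 and 63.0% with CPN 2.

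**Figure D2:**
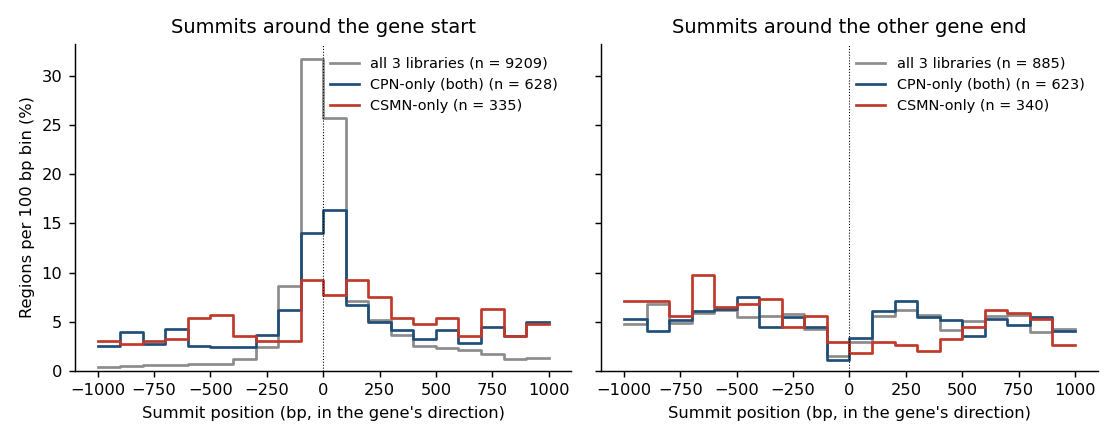
Share of regions (y axis, percent per 100 bp bin) by the position of the summit relative to the gene start (left) or the other gene end (right), in bp along the gene's direction, for CSMN-only members, CPN-only regions and regions of all 3 libraries. Shared regions pile up within 100 bp of the start (57.4%), and members do so far less often (17%).

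Many members were flanked by accessible sites of both cell types. For 98 of the 335 members at a start (29.3%, interval 24.6 to 34.3), which belonged to 323 genes, another region with a peak in all 3 libraries lay within 1 kb of the same start, and 169 (50.4%) were the only region there. A shared region lay at the same start for 36.6% of CPN 1 alone, 26.3% of CPN 2 alone and 27.7% of CPN-only regions. In these classes 36.9%, 48.4% and 51.3% were the only region at the start, so members were not unusual in either share. For members at the other end, the start of the same gene had a shared region in 203 of 340 cases (59.7%, interval 54.4 to 64.8), against 64.1% for CPN 1 alone, 66.3% for CPN 2 alone and 73.2% for CPN-only regions at that end. The nearest CPN peak was a median of 1856 bp away, and 354 members (41.4%) had one within 1 kb, of which 82 had one within 100 bp. CSMN-only regions away from gene ends had a CPN peak within 1 kb in 25.1% of cases. At the other extreme, 161 of the 855 members had no CPN peak within 10 kb, against 6961 of 22528 CSMN-only regions away from gene ends. Members thus lay that far from a CPN peak less often than the rest of their class.

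Promoters that held a member summit were poor in CpG. The summits of 62 members fell in 63 listed promoter windows, whose median CpG ratio was 0.185 and median GC content 52.7%. Over all 20085 listed windows of autosomal genes, chromosome 18 not included, the medians were 0.586 and 57.0%, and over the 7432 windows with a summit of all 3 libraries they were 0.806 and 62.7%. Windows with a CpG ratio of at least 0.6 numbered 6 of 63 among members (9.52%, interval 4.44 to 19.3) and 81.8% among shared windows. The value was 9.21% for CPN 1 alone, 13% for CPN 2 alone and 23.3% for CPN-only windows, so windows found in a single CPN library were likewise poor in CpG. With genes under provisional names left out, 1 of 45 member windows was CpG-rich.

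**Figure D3:**
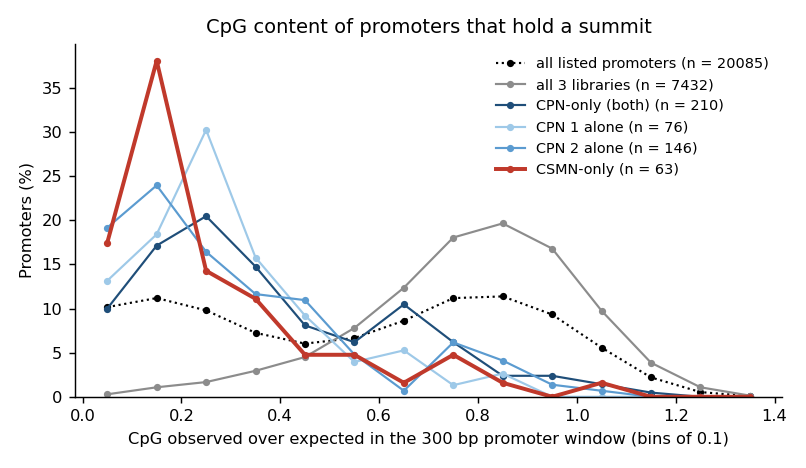
Distribution of the CpG observed over expected ratio (x axis, bins of 0.1) over 300 bp promoter windows (y axis, percent of windows) that held a summit of each class. The 63 member windows peak at low ratios, with a median of 0.185, and the 7432 shared windows at high ratios, with a median of 0.806.

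Among the 8 motifs searched on both strands, the GC box GGGCGG was found in 11 of 63 member windows (17.5%), in 47.0% of all listed windows and in 71.3% of shared windows. The share was 21.1% for CPN 1 alone, 26.0% for CPN 2 alone and 37.1% for CPN-only windows. Windows of a single CPN library thus also held it less often than all windows. CCAAT was found in 42.9% of member windows and 38.1% of all windows. The AP-1 motif TGANTCA was present in 9 member windows (14.3%, interval 7.70 to 25), against 7.06% of all windows. The share was 6.58% (interval 2.84 to 14.5) for CPN 1 alone, 12.3% for CPN 2 alone and 8.10% for CPN-only windows. The intervals of members and CPN 1 alone overlap. No test was made of any motif. TATAAA was found in 3 member windows (4.76%), against 12.7% of all windows, 19.7% for CPN 1 alone and 5.6% of shared windows. CACGTG was found in 3 member windows, against 7.89% of all windows. CANNTG, which also counts each CACGTG, was found in 47 (74.6%, interval 62.7 to 83.7), against 68.7% of all. Its share was 88.2% for CPN 1 alone, 79.5% for CPN 2 alone and 75.2% for CPN-only windows. Neither TGACGTCA nor CGCATGCG occurred in the 63 windows, which allows a share of up to 5.75% by the Wilson interval, and their shares over all windows were 2.30% and 2.54%.

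The 5 members with the highest folds lay at uncharacterized or multi-copy genes. The highest, on mm10 chromosome 8 at 55498512 to 55499057, had a fold of 12.1 and a −log10 q of 98.1 and lay 263 bp inside the start of Gm51598. Next to it, a region at the other end of Gm51597 (55496284 to 55496537) had a fold of 8.16. On chromosome 14 a region 431 bp inside the start of Gm2832 (41264903 to 41265563) reached 8.33, and a further member at 41264494 to 41264709, which covers the start shown above, reached 3.56. Gm15319 followed with 5.47 and Speer4c, a member of a rodent-specific gene family, with 4.99. Of the 20 members with the highest fold, 12 lay at genes with provisional Gm or Rik names. The nearest CPN peak lay 65828 bp from the weaker Gm2832 member, 66237 bp from the stronger one and 124596 bp from the top Gm51598 member. At Speer4c, by contrast, a CPN peak lay 238 bp from the strongest member.

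Provisional names covered 104 of the 855 members (12.2%, interval 10.1 to 14.5), compared with 5.06% of gene-end regions of CPN 1 alone, 5.02% of CPN 2 alone, 4.72% of CPN-only regions and 3.16% of shared regions. Regions called in CSMN and a single CPN library lay between, at 7.51% with CPN 1 (4.68 to 11.9) and 9.61% with CPN 2 (6.43 to 14.1). Both of these intervals overlap that of members. Of the 106 members with a −log10 q of at least 5, 36 (34.0%) lay at such genes. The median fold was 2.52 at provisional genes and 2.31 at the others. Such genes made up 7.52% of the 20665 autosomal protein-coding genes.

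Part of the members lay in stretches of the genome where CSMN-only regions outnumbered the rest. A stretch was counted where at least 10 CSMN-only regions lay within 250 kb of a member summit and made up over 50% of all regions there, a definition set after the data were seen. It held for 49 members (5.73%), for 12 of 1911 gene-end regions of CPN 2 alone under the mirrored definition, and for 0 of 1147 of CPN 1 alone (Wilson interval reaching 0.334%) and 0 of 1630 CPN-only regions (0.235%). Regions without a CSMN peak were split over CPN 1 alone, CPN 2 alone and CPN-only, whereas CSMN-only regions formed a single class. A majority of any CPN class was therefore harder to reach, and these counts are not like for like. These 49 members formed 29 groups on 15 chromosomes and included 11 of the 20 members with the highest fold and 26 of the 106 with a −log10 q of at least 5. Their median fold was 2.95, against 2.32 for the remaining 806. Neither the handling of reads that map to several places nor the strain of the mice in each library was given in the sources used here. The part of either in these stretches and in the highest folds was not tested.

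The largest such group by number of CSMN-only regions surrounded Gm15319 on chromosome 8, with 92 CSMN-only, 0 CPN-only and 60 shared regions, and 1 of CPN 2 alone. On chromosome 14, around Gm8094 and Gm8127, there were 80 CSMN-only, 0 CPN-only and 5 shared regions and 1 of CPN 2 alone. On chromosome 1, 4 members at Fbxo36, A530032D15Rik, Gm7609 and Gm7592 stood among 78 CSMN-only, 2 CPN-only and 18 shared regions, with 2 of CPN 1 alone and 8 of CPN 2 alone. A neighboring member lay 895 bp before the start of Sp140, which encodes a nuclear body protein of immune cells (fold 3.38). On chromosome 4, members at the zinc finger genes Zfp982 (3.64) and Zfp985 (3.68) stood among 55 CSMN-only, 4 CPN-only and 23 shared regions, with 6 each of CPN 1 alone and CPN 2 alone. Members at the major urinary protein genes Mup8 and Mup9 stood among 44 CSMN-only and 4 shared regions, 1 of CPN 1 alone and 2 of CPN 2 alone. Those at Sprr1a and Ivl, which encode proteins of the cornified skin barrier, and at Smcp stood among 14 CSMN-only and 0 shared regions, 1 of CPN 1 alone and 5 of CPN 2 alone. Regions called in CSMN and a single CPN library are left out of the counts for these stretches.

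**Figure D4:**
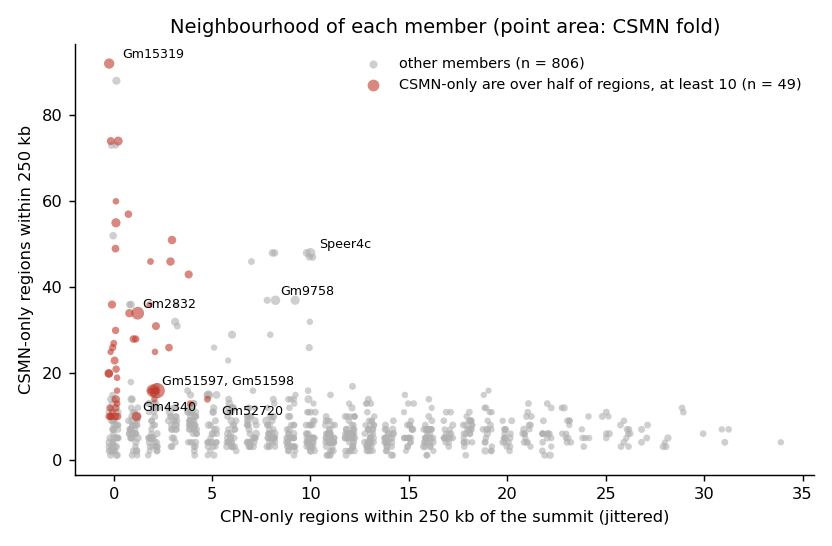
Number of CSMN-only regions (y axis) against CPN-only regions (x axis, jittered) within 250 kb of each of the 855 member summits, with point area scaled to the CSMN fold and the 8 members of highest fold named. The 49 members in stretches dominated by CSMN-only regions (red) have up to 92 CSMN-only and at most 5 CPN-only regions nearby. Regions of a single CPN library are not on either axis.

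Several large gene families with few accessible ends had many members among those ends. Olfactory receptor genes, which encode the odorant receptors of the nose and are closed in most tissues, had 81 gene-end regions, of which 34 (42.0%, interval 31.8 to 52.8) were members, 8 were shared and 10, 14 and 7 were found in CPN 1 alone, CPN 2 alone and both CPN libraries. Per gene, 32 of 1104 olfactory receptor genes had a member (2.90%), against 3.9% of all autosomal protein-coding genes. The strongest were Olfr145 (3.64), Olfr898 (2.95), Olfr419 (2.86) and Olfr209 (2.69), and only 3 of the 34 reached a −log10 q of 5. With peaks of at least that level required in every list, 3 of 18 olfactory receptor regions were CSMN-only, and with lists of equal length 44 of 57. Olfr419 had a CPN peak 1 bp away, whereas the nearest to Olfr898 was at 368591 bp.

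Defensins, antimicrobial peptides, had 9 members among 12 gene-end regions, at 8 of 71 genes. Defb10 reached a fold of 3.04, Defb11 2.86, and Defa39 and Defb2 2.78 each. The Defb11 summit lay 28 bp before its start. The rodent multi-copy set of Speer, Spin2, Pramel, Mup and like genes had 17 members among 34 gene-end regions (interval 34.1% to 65.9%), led by Speer4c, Pramel16 (3.99), Mup8 (3.47) and Pramel51 (3.30). With strong peaks only, 8 of 20 regions of this set were CSMN-only. Vomeronasal receptor genes, which serve pheromone detection, had 4 of 6, at Vmn2r43 (3.04), Vmn1r202 (2.43), Vmn2r22 (2.34) and Vmn2r30 (2.17). The prolactin family had 2 of 3, both at Prl2c3, with the stronger one, 43 bp before the start, at 3.04, and Taar5, a trace amine receptor gene, had 1 at 2.69. Per gene, 4 of 354 vomeronasal receptor genes (1.13%, interval 0.440 to 2.87) and 1 of 26 prolactin family genes (3.85%) had a member. The share was 11.3% for defensins, 9.6% for the rodent multi-copy set and 3.9% for all autosomal protein-coding genes.

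In the remaining families the share ran from 0 to 16.7%, against the background of 4.56%. Keratin and keratin-associated genes had 8 members of 75 gene-end regions (10.7%, interval 5.50 to 19.7), at Krtap8-1 (3.04), Krt79 (2.91), Krtap26-1 (2.86) and Krt83 (2.43) among others, but 20 and 23 regions of CPN 1 alone and CPN 2 alone. Cytochrome P450 genes had 6 of 65, led by Cyp21a1 (2.81) and Cyp2j12 (2.78), whose summit lay 22 bp before the start. The Hox clusters, which pattern the body axis, had 5 of 57, at Hoxc5 (2.60), Hoxc6 (2.59), Hoxc12 (2.52) and Hoxd4 (2.26), beside 15 CPN-only regions. C-type lectin and related genes had 5 of 30 (16.7%, interval 7.34 to 33.6), with Clec3b at 2.74 and Clec4n at 2.26. Solute carriers had 20 of 393 (5.09%), led by Slc5a10 (2.60), and interleukin and chemokine genes 4 of 86, led by Ccl12 (2.60). The 370 regions at Zfp genes held 15 members (4.05%), with 5 of them in the CSMN-dominated stretches. Ribosomal protein and histone genes, which every cell uses, held none. Of 91 cytosolic ribosomal protein genes and 71 histone genes 0 had a member, which allows a share of up to 4.05% and 5.13% by the Wilson interval.

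**Figure D5:**
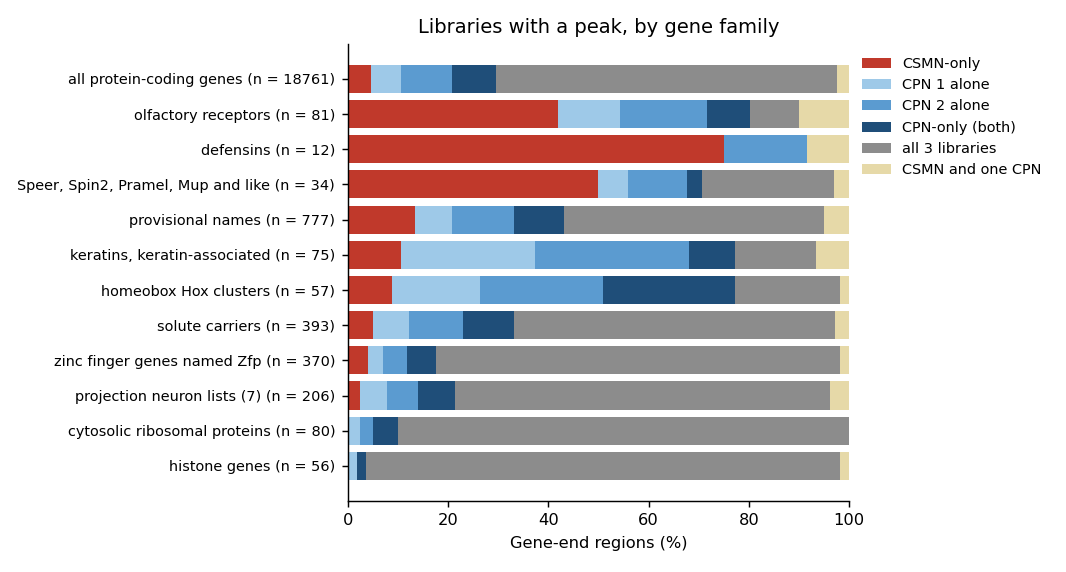
Share of gene-end regions (x axis, percent) by the libraries with a peak, for all protein-coding genes and for gene families and lists (y axis, with the number of regions). CSMN-only regions (red) make up 42.0% at olfactory receptor genes and 4.56% over all genes, and none at ribosomal protein or histone genes.

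Few genes of projection neuron biology had a member, at a share near that of all genes. Across 7 lists (CSMN, CPN, corticothalamic, axon guidance, activity-regulated, pan-neuronal and ion channel genes), 5 of 154 genes had a member (3.25%), and members made up 2.43% of their 206 gene-end regions (interval 1.04 to 5.56), against 4.56% of all, while 154 of those regions were shared. In the CSMN list Parm1 alone had one, 306 bp inside its other end on chromosome 5 (91623624 to 91623782), with a fold of 3.04 and a −log10 q of 6.38. The shared region at the start of Parm1 had folds of 12.4 (CPN 1), 16.0 (CPN 2) and 7.19 (CSMN). Around Parm1 and 10 kb either side there were 3 CPN-only regions, 4 of CPN 1 alone and 3 of CPN 2 alone beside the single CSMN-only one. The member at Parm1 was the only one of these 5 to reach a −log10 q of 5.

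The other 4 were weaker. Cplx3, a complexin gene of subplate neurons, had a member 479 bp past its other end with a fold of 2.05, 87 bp from a CPN peak. Unc5c, which encodes a netrin receptor, had one at 2.08. Junb, an activity-regulated subunit of AP-1, had one inside its other end at 1.96. Pou3f3, which encodes the upper-layer factor BRN1 and is on the CPN list, had one 754 bp inside its start at 1.87, next to a shared region at the same start. None of the 14 pan-neuronal genes or 28 ion channel genes on the lists had a member, which allows shares of up to 21.5% and 12.1% by the Wilson interval.

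With markers of other cell types added, the share stayed near that of all genes. Over all 13 lists, the 7 above included, 9 of 230 genes had a member, a share of 3.91%, against 3.9% of all genes. Of 16 interneuron genes, Dlx1 (2.27, 794 bp before the start) and Nkx2-1 (2.24, 505 bp inside it) had one, and both encode homeodomain factors of the ventral forebrain. Of 12 endothelial and mural genes, Tek (2.17) and Erg (2.08) had one at the other end. Members were found at 0 of 11 astrocyte, 0 of 11 oligodendrocyte, 0 of 13 microglia and 0 of 14 progenitor genes, counts of 0 that allow up to 25.9%, 25.9%, 22.8% and 21.5% by the Wilson interval.

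Among genes outside the families and without provisional names, the 15 members of highest fold ran from 4.25 to 3.04. Dynlt1c, which encodes a dynein light chain and has close copies, led with 4.25, 586 bp inside its start, with a shared region at the same start and a CPN peak 238 bp away. Akr1c13 (chromosome 13, 4191079 to 4191347) had 3.64, with the summit 24 bp inside the gene's first base in the gene table, which lies before the start used for the window shown above. Its gene and flanks held 4 CSMN-only regions and no region of another class, and the nearest CPN peak was 53652 bp away. Ttc37, which encodes a subunit of the SKI complex of RNA decay, had 3.64 at 556 bp past its other end, and Smcp, which encodes a sperm mitochondrial protein, had 3.56.

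The member at Nts lay close to the gene's start. It spanned 102490194 to 102490475 on chromosome 10 and had a fold of 3.30 and a −log10 q of 7.98, with the summit 29 bp inside the start of the gene. It was the only region at that start. Nts and 10 kb either side held 2 CSMN-only regions and 1 with a peak in CPN 2 and CSMN, and the CPN peak nearest to the member lay 8421 bp away. Within 250 kb there were 22 regions, of which 9 were CSMN-only, 4 CPN-only and 5 shared, so Nts did not lie in a CSMN-dominated stretch. Whether Nts was transcribed in these cells was not measured.

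The potassium channel gene Kcnh8 had a member 666 bp inside its other end (chromosome 17, 52978318 to 52978710, fold 3.04), with the nearest CPN peak at 57342 bp and with a shared region at its start. Ndst3, which encodes an enzyme of heparan sulfate synthesis, had 3.21 at 378 bp inside its other end and also a shared start. Dse, an enzyme gene of dermatan sulfate synthesis, had 3.12, and Tmem14a, Ear2 (an eosinophil ribonuclease gene) and Ly6c1, a surface antigen gene of myeloid and endothelial cells, had 3.12 each. Tnfaip8 had 3.47, Slamf7, an immune receptor gene, 3.30, and Gpr1, a chemerin receptor gene, 3.09. Of these 15 members, 6 had a shared region at the gene's start, namely those of Dynlt1c, Ttc37, Ndst3, Tmem14a, Ear2 and Kcnh8, and for Tnfaip8 the strand was not known.

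Most genes had a single member, and 43 of the 806 had more. Speer4c had 4. Mrgpra3, which encodes an itch receptor of sensory neurons, had 3 with folds of 2.61, 2.28 and 1.83, and its gene and flanks held 12 regions, of which 8 were CSMN-only, 1 was of CPN 2 alone, 2 were called in CSMN and a single CPN library, and 1 was shared. Cul1, the scaffold gene of SCF ubiquitin ligases, had 3 at its other end (2.43, 2.26 and 2.08), N4bp1, which encodes an RNA-binding regulator of immunity, had 3 (2.53, 2.41 and 2.14), Gm52720 had 3 and Gm51598 had 2. Members at one gene share their surroundings and are not independent. A further 35 members (4.09%) lay within 1 kb of the ends of more than 1 gene and were given to the nearest.

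At the distance limit, the members just inside were those of Olfr288 at 1000 bp (fold 2.52), Caly at 998 bp (2.02) and Atxn10 at 997 bp (2.01). Just outside, at 1002 bp, lay CSMN-only regions of Qtrt2 (2.34), Hoxd3 (2.52) and Bhlhe23 (2.39). The members with the lowest −log10 q were those of Fbxw8 at 1.30 and of Aspm and Gm10318 at 1.32, close to the lowest value of the CSMN list, 1.30.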

How the data were processed

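Peak lists of 3 ATAC-seq libraries were used. Tools named in the submitters' processing notes are MACS2 2.2.7.1, bedtools 2.29.2 and BWA 0.7.17, with the build mm10 and no roles. For read filters, duplicates and reads with several map positions, no treatment was given in the sources used here. Per peak, the deposited lists hold the authors' own fold enrichment ratio, −log10 p and −log10 q, and the summit position as an offset in bp. Peak names carry 1 library each, so peaks were taken as called per library.

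Peaks sharing at least 1 bp were merged in Python 3.11.15, and class counts differed from those of bedtools 2.31.1 by 0 regions. The code was tested on simulated peaks. Gene ends came from the RefSeq table of GRCm38.p6 (20665 autosomal protein-coding genes), and strand and promoter sequence from RefSeq promoter windows, matched by gene ID for 16457 of them and for none on chromosome 18. Exons, introns and UTRs were not used. Gene list entries were matched by current symbol (240 of 241) or, for 1, by a former one. Shares carry Wilson 95% intervals, which cover counting error only. Members, gene lists and families were chosen with earlier results of these data known, and several lists and families overlap. Named genes were the 20 members of highest fold, the 15 highest outside the families and provisional names, up to 4 genes per list or family, the 6 genes with most members, and the members at the limits. Alternatives in peak threshold, list length, distance, overlap, gap to CPN peaks, library and gene set are given in the closing section.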

Additional observations from a re-analysis of the deposited data

Results flagged for a closer look

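Chromosomes outside the rule also held signal that differed between the libraries. On the unplaced scaffolds of chromosome 1 the CSMN list had 93 peaks, against 4 in CPN 1 and 6 in CPN 2, and 88 of the 94 merged regions there were CSMN-only. No protein-coding gene end was found within 1 kb of them in the gene table used. The same was true of every region on the other scaffolds and chromosome M. That result therefore does not show that gene ends are absent there. On chromosome Y there were 267 CSMN-only regions of 684, beside 23 of CPN 1 alone, 46 of CPN 2 alone and 24 CPN-only regions, with 594 peaks in CSMN, 333 in CPN 1 and 373 in CPN 2. Of these CSMN-only regions 1 lay within 1 kb of a protein-coding gene end. Both counts come from data the comparisons above do not use, and their cause was not tested.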

How the results depend on the processing

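With a −log10 q of at least 5 required in every list, 167 regions at 159 genes were CSMN-only, not all of them members, since CPN peaks below that level no longer counted. They were 1.11% of gene-end regions, with 27.5% at provisional genes, 57.4% at the start and a median fold of 2.95. With that level required of CSMN peaks alone the values were 106 regions, 100 genes, 3.42% of CSMN-only regions, 0.587% of gene-end regions, 34.0%, 55.2% and 3.04. With lists of equal length (98067 peaks), which trims the CPN lists only, 1276 regions were 4.11% of CSMN-only and 7.98% of gene-end regions. A limit of 500 bp gave 428 regions, 416 genes, 1.83%, 3.06% and 59.5% at the start, and 2 kb gave 1600, 1455, 6.84%, 6.09% and 45.1%. Requiring that a shared peak cover at least 50% of the other raised the share of gene-end regions to 5.27%. With no CPN peak within 1 kb the values were 501 regions, 477 genes, 2.89%, 2.67%, 15% provisional and 44.3% at the start. Without provisional genes the shares were 3.22% of CSMN-only and 4.17% of gene-end regions; their own share then has no value. Without either CPN library the count ran from 1107 to 1187 regions and 1038 to 1112 genes, 3.91% to 4.17% of CSMN-only and 6.44% to 6.55% of gene-end regions, 10.3% to 11.5% provisional, 50.9% to 54.2% at the start, and a median fold of 2.34. In 30 of the 69 comparisons with an alternative the value stayed within its interval or within 1.5 times the count. Settings for the families and for CpG-rich windows were added after seeing the data: without either CPN library, CSMN-only regions were 54.4% to 56.9% of olfactory receptor regions. Leaving out the CSMN library leaves no member. No paired analysis was possible because the groups share only 1 replicate number and no test was made. The unknown read depth limits what absence of a peak shows.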

Other observations

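On chromosome X, which the rule leaves out, 14 of 498 gene-end regions were CSMN-only. Across the autosomes the CSMN-only share of gene-end regions ran from 2.49% on chromosome 19, with 16 members, to 5.70% on chromosome 4, with 72. Genes with a member had a median length of 16.3 kb, compared with 24.1 kb for genes with a shared gene-end region and 17.5 kb for all autosomal protein-coding genes. The median was 18.4 kb for genes with a region of CPN 1 alone, 18.4 kb for CPN 2 alone and 19.0 kb for CPN-only. Members of Opn4 and Capn12 fall outside the naming rule and were chosen after their values were seen. Opn4, which encodes the photopigment melanopsin, had one 6 bp before its start with a fold of 2.60, and Capn12, a calpain protease gene, had one 23 bp before its start with a fold of 2.80. Each was the only region at that start. The member at Zfp345, a zinc finger gene, lay 65 bp before its start with a fold of 3.12, with the nearest CPN peak at 15254 bp.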
